A study of Arabidopsis thaliana with 6 samples.

Results

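The array titled zer was set against the 4 arrays titled wat, OMG, DOG and man, which hold seedlings not given glucose as far as the titles tell. The members are these 5 of the 6 arrays in the series, and 12548 of the 22746 probe sets that are not controls were compared. Signals are on a linear intensity scale. A probe set entered when its signal reached the median of its array on at least 1 of the 5 arrays. All 6 arrays came from whole Col-0 seedlings of Arabidopsis thaliana, at growth stage 1.02, raised in continuous light at 23 °C on reduced-strength Murashige and Skoog medium with 0.8% agar after 72 h of cold stratification at 4 °C. No transgene or mutant allele is named for any group, and whether seedlings were pooled is not given in the sources used here. The treatment field reads "none" throughout, so a group rests on its array title alone. The titles zer, wat and man are kept as written, because nothing spells them out. OMG and DOG are read as the glucose analogs in the series title, which a related publication used as 3-O-methylglucose and 6-deoxyglucose. The sixth array, glc, is read as glucose, and its signal is given only beside the other values. A signal in the lowest 40% of its array was raised to that percentile, a floor of 26.1 to 28.8, and a fold that rests on the floor is written as "at least". Each title has 1 array, so nothing below carries a test, and wat, OMG, DOG and man are different treatments and not replicates.

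Plants read their carbon supply through several sensors. The kinase SnRK1, active when energy is short, switches on genes that break down amino acids, lipids and cell contents, and sugars turn the same genes down. Handling, touch, osmotic change and elicitors act within minutes through calcium, and calmodulin-like proteins, WRKY factors and C2H2 zinc finger repressors are typical early responders. Cold and abscisic acid induce COR and LTI genes, whose small hydrophilic products protect membranes and proteins from drying.

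The zer array stood apart from the other 4. In zer, 99 probe sets (0.789% of those compared) had a signal at least 2-fold higher than the mean of the 4 log2 signals, and 114 (0.909%) were at least 2-fold lower. At 1.5-fold the shares were 4.69% higher and 4.12% lower. With all arrays scaled to equal medians, 70 probe sets were higher and 141 lower, so that 33.2% of calls were higher, against 46.5% on the deposited scale. The median difference over all probe sets was 0.02 on the log2 scale. The typical spread among wat, OMG, DOG and man was an SD of 0.13, the median over probe sets. In bulk seedlings, fewer cells of a type and less RNA per cell cannot be told apart.

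Pairs of arrays give the scale of these counts. The share of probe sets at least 2-fold apart was 1.61% between zer and wat, 1.75% between zer and OMG, 1.89% between zer and DOG, and 3.38% between zer and man. Among the other 4 arrays the same share was 0.143% for wat and OMG, 0.207% for wat and DOG, 0.383% for wat and man, 0.0797% for OMG and DOG, 0.271% for OMG and man, and 0.319% for DOG and man. The lowest share with zer was therefore above the highest without it. The SD of log2 differences ran between 0.36 and 0.44 for pairs with zer and between 0.21 and 0.27 for pairs without it. Pairs that contain the same array are not independent of each other.

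**Figure D1:**
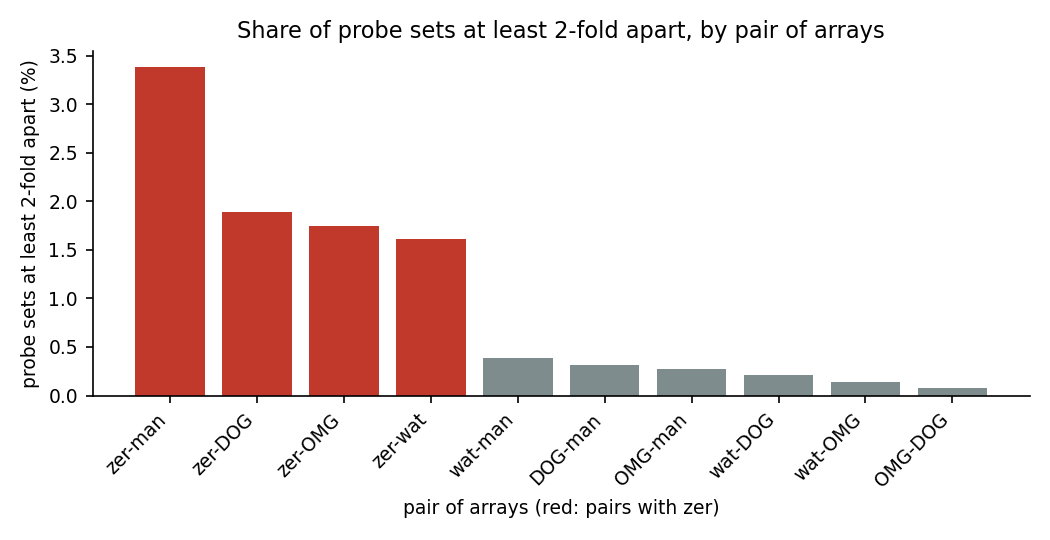
Bars give the percent of 12548 probe sets whose signals were at least 2-fold apart, for each pair among zer, wat, OMG, DOG and man. The 4 pairs with zer (red) run between 1.61% and 3.38%, and the 6 pairs without it (grey) between 0.0797% and 0.383%.

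The control ratios below were all highest in the zer array. The 3′ to 5′ signal ratio of the actin control, which rises when labelled RNA is short, was 7.48 in zer, against 4.66 in wat, 4.03 in OMG, 3.46 in DOG and 4.55 in man, and it was 6.41 in glc. The GAPDH control gave 1.38 in zer, against 1.21 to 1.35 in the 4 arrays, and 1.26 in glc. The ubiquitin control gave 2.84 in zer, against 2.24 to 2.48, and 2.73 in glc. Called genes were also unevenly spread over gene length. When the 6669 probe sets named for 1 gene were ranked by genomic gene length into 4 bins of nearly equal size, the shortest bin held 25 higher and 28 lower calls and the longest held 3 and 3. The median difference was 0.02 in the shortest bin and 0.04 in the longest. The part of RNA completeness in the results was not tested.

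All 99 higher and all 114 lower probe sets had zer outside the range of wat, OMG, DOG and man. Over all probe sets compared, zer lay above all 4 arrays in 32.7% and below all 4 in 27.1%. Probe sets that entered through zer alone, such as AT4G11190 and AT3G57010, had to have zer above the 4. This holds for the higher calls and for the 32.7%, and such probe sets were not counted. Zer was at least 2-fold from the nearest of the 4 arrays for 45 of the higher and 57 of the lower probe sets. The difference was 5 or more SDs of the 4 arrays for 65 higher and 79 lower probe sets. In that count, an SD under the median of 0.13 over all probe sets was raised to it. Where all 4 arrays lay at the floor, the SD was only the spread of their floor values. The threshold cuts a continuous range: 28 probe sets lay between 1.9-fold and 2-fold higher and 28 between 2-fold and 2.1-fold higher, and 27 and 19 did so among the lower ones. A 4-fold difference was reached by 4 probe sets in each direction.

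Among the called probe sets, the man array was the one farthest from zer most often. It was the extreme array for 89 of the 114 lower probe sets and for 50 of the 99 higher ones. The array nearest to zer was wat for 54 of the lower and 43 of the higher probe sets. How often each array was farthest or nearest over all probe sets was not computed. Over all probe sets man also had the largest share at least 2-fold from zer, 3.38%. The mean that sets the calls includes man, and without man 86 were higher and 99 lower. Median signal over the lower probe sets was 88.6 in zer, against 194 in wat, 209 in OMG, 210 in DOG and 261 in man. Over the higher probe sets it was 135 in zer, against 58.8 in wat, 61.7 in OMG, 54.6 in DOG and 46.5 in man. The floor bars a 2-fold lower call where the 4 arrays are dim, so these medians do not compare like with like. A signal at the floor underlies 24 of the 99 higher and 10 of the 114 lower differences.

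**Figure D2:**
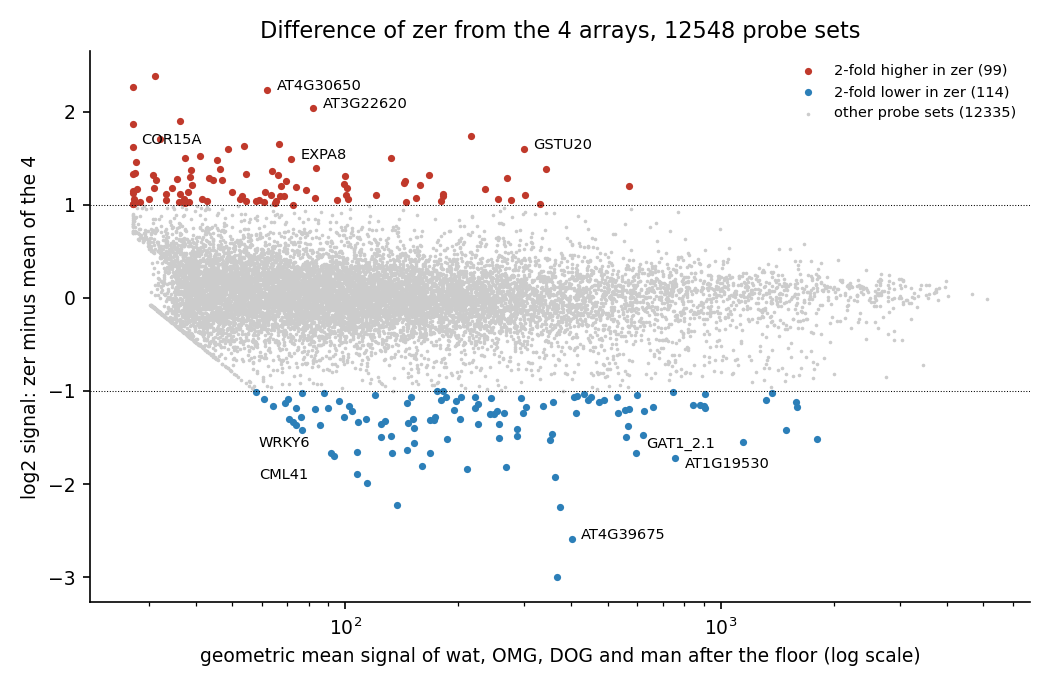
Each point is 1 of 12548 probe sets, with the geometric mean signal of wat, OMG, DOG and man on a log x axis and the log2 signal of zer minus their mean on the y axis. Red points are the 99 at least 2-fold higher in zer and blue points the 114 at least 2-fold lower; higher calls reach down to the lowest signals, where the floor leaves no room for a 2-fold lower call.

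Several genes of sugar starvation and amino acid breakdown were lower in zer. The list holds 43 entries, and 39 of them matched a gene. A probe set of their own was found for 17, and 15 were compared. Of these, 5 were at least 2-fold lower and 0 higher, where 0.909% and 0.789% of all probe sets were. The 5 include the growth gene EXO. Zer lay below all 4 arrays in 14 of 15, where the share over all probe sets was 27.1%. The list was chosen with earlier results of these data known, so these counts are descriptive and no independent support. The median difference was -0.56, against 0.02 over all probe sets, and ran between -0.64 and -0.52 over the processing alternatives.

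Nitrogen release from amides carried the largest differences of that list. GAT1_2.1, a class I glutamine amidotransferase, gave a signal of 187.5 in zer, against 508.6 in wat, 586.0 in OMG, 532.8 in DOG and 791.3 in man, and 50.3 in glc. It was 3.18-fold lower in zer, and the lowest of the 4 arrays was 2.71-fold above zer. ASPGB1, an asparaginase that frees ammonia from asparagine, read 82.0 in zer, against 186.7 in wat, 194.3 in OMG, 199.0 in DOG and 233.6 in man, and 37.5 in glc. That is 2.47-fold lower, with an SD of 0.14 over the 4 arrays, near the median of 0.13 over all probe sets.

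Leucine breakdown genes were lower as well. IVD, isovaleryl-CoA dehydrogenase, gave 229.0 in zer, against 484.5 in wat, 466.2 in OMG, 457.1 in DOG and 555.7 in man, and 147.3 in glc, a 2.14-fold lower signal. MCCA, a subunit of methylcrotonyl-CoA carboxylase in the next steps of the same pathway, gave 369.6 in zer, against 697.0 in wat, 728.0 in OMG, 737.0 in DOG and 833.0 in man, and 142.7 in glc, 2.02-fold lower. Its partner subunit MCCB did not reach 2-fold: it read 474.6 in zer, against 625.9 to 762.7 in the 4 arrays, and 186.5 in glc. ETFQO, which passes the electrons of these oxidations to ubiquinone, read 140.6 in zer, against 189.6 to 220.6. For each of the 4 genes zer was below every one of the 4 arrays and above glc.

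The remaining members included a growth gene and parts of the energy-sensing system. EXO, the cell-expansion gene EXORDIUM, gave 380.2 in zer, against 721.5 in wat, 820.4 in OMG, 1032.4 in DOG and 825.3 in man, and 415.6 in glc. It was 2.22-fold lower, a log2 difference of -1.15, and that difference was -0.92 against wat alone, short of 2-fold. Unlike the breakdown enzymes it was slightly lower in zer than in glc. AKINBETA1, a beta subunit of SnRK1, read 320.9 in zer, against 523.4 to 629.4, and 206.1 in glc, a 1.76-fold difference that misses the call. MGL, a methionine gamma-lyase, was the only member of the 15 inside the range of the 4 arrays, with 80.8 in zer, against 80.7 in DOG and 101.2 to 182.7 in wat, OMG and man. BZIP53, a transcription factor of low-energy signalling, read 433.4 in zer, against 463.9 to 517.2.

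Autophagy genes, which encode the machinery that delivers cell contents to the vacuole, did not reach 2-fold. All 10 ATG8 and ATG3 genes measured were compared, and 0 reached 2-fold in either direction. Over all probe sets 0.789% were higher and 0.909% lower, so 0 calls in a list this short is near those shares. Zer was below all 4 arrays in 8 of 10, where the share over all probe sets was 27.1%, and the median difference was -0.18. ATG8E had the largest difference, with 347.1 in zer, against 469.7 in wat, 533.9 in OMG, 540.1 in DOG and 582.0 in man, and 292.8 in glc, 1.53-fold lower. ATG8F, the brightest, read 927.7 in zer, against 994.0 to 1128.5.

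The glyoxylate cycle enzyme ICL, isocitrate lyase, which turns stored fat into sugar precursors, read 67.8 in zer, against 101.7 in wat, 128.6 in OMG, 121.4 in DOG and 142.5 in man, and 21.0 in glc. It was 1.81-fold lower, short of the call. The fat lipase SDP1 gave 98.3 in zer, against 122.6 to 154.4, while AIM1 of peroxisomal fatty acid oxidation gave 247.4 in zer, against 196.2 to 216.6. These 3 are the measured members of that list, and 0 of 3 reached 2-fold, where 0.789% of all probe sets were higher and 0.909% lower.

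Sugar transporters did not reach 2-fold in either direction, which in a list this short is near the shares over all probe sets (0.789% higher and 0.909% lower). Of 16 with a probe set, 9 were compared, 5 with zer below all 4 arrays and 2 above (27.1% and 32.7% over all probe sets), at a median of -0.27. SWEET2, a sugar uniporter of the vacuole membrane, had the largest difference, with 236.2 in zer, against 395.1 in wat, 373.1 in OMG, 343.9 in DOG and 448.8 in man, and 176.2 in glc. In the other direction, the tonoplast fructose carrier SWEET17 read 261.2 in zer, against 158.2 to 199.9. The tonoplast sugar carriers TMT1 and TMT2 were split: TMT1 read 255.2 in zer, against 311.1 to 364.6, and TMT2 read 77.9 in zer, against 41.8 to 64.8.

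Some rapid stress-signalling genes were lower in zer. Of 58 list entries, 10 had a probe set and 7 were compared; 3 were at least 2-fold lower and 0 higher, where 0.909% and 0.789% of all probe sets were. Zer was below all 4 arrays in 6 of 7 and above in 0, against 27.1% and 32.7% over all probe sets. The median difference was -0.81. This list too was chosen with earlier results of these data known. CML41, a calmodulin-like protein, read 25.2 in zer, which is below the floor, against 60.6 in wat, 104.5 in OMG, 145.1 in DOG and 143.9 in man, and 68.7 in glc. It was at least 3.72-fold lower, and its level on the 4 arrays was itself uneven. Against wat alone the log2 difference was -1.07.

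WRKY6, a transcription factor of senescence and defence, gave 34.0 in zer, against 92.9 in wat, 101.5 in OMG, 123.7 in DOG and 113.3 in man, and 40.1 in glc. It was 3.15-fold lower in zer, and the lowest of the 4 arrays was 2.73-fold above zer. STZ, a zinc finger repressor of cold, salt and wound responses, gave 67.8 in zer, against 141.3 in wat, 164.6 in OMG, 172.3 in DOG and 198.8 in man, and 87.9 in glc, 2.48-fold lower. WRKY22, of the immune kinase pathway, read 65.7 in zer, against 102.8 to 133.8, a 1.75-fold difference. The ubiquitin ligase PUB22 read 64.3 in zer, against 101.3 to 116.7. Its relative PUB23 read 35.1 in zer, against 43.8 to 57.2, whereas PUB24 read 47.1 in zer, inside the 40.9 to 49.0 of the 4 arrays. Across the WRKY family, which has 4 compared members, WRKY20 read 123.2 in zer, against 85.4 to 104.1, so the family did not share 1 direction.

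One jasmonate-linked defensin gene was lower in zer, and it varied widely among the 4 arrays. PDF1.2b read 59.2 in zer, against 89.5 in wat, 217.0 in OMG, 192.0 in DOG and 532.8 in man, and 114.0 in glc. The 3.57-fold difference shrank to 1.51-fold against wat alone, and the probe set is of a type that may read related genes. PDF1.2 read 13.8 in zer, against 27.2 in wat, 39.7 in OMG, 36.0 in DOG and 178.9 in man, with zer and wat below the floor. The wider list of defence genes, with 6 compared, had 0 past 2-fold (0.789% higher and 0.909% lower over all probe sets). Zer lay above all 4 arrays in 4 and below in 2, against 32.7% and 27.1% over all probe sets.

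Other genes named as lower belonged to no single list. XTH18, a xyloglucan endotransglucosylase of the cell wall, read 75.8 in zer, against 163.1 in wat, 252.2 in OMG, 578.9 in DOG and 215.1 in man, and 103.9 in glc. It was 3.53-fold lower, with DOG far above the other 3 arrays, and 2.15-fold lower against wat alone. ATL8, a RING-type ubiquitin ligase, read 88.5 in zer, against 230.9 in wat, 213.9 in OMG, 193.1 in DOG and 275.3 in man, and 86.2 in glc, 2.56-fold lower. SUFE2, which feeds sulfur to iron-sulfur cluster assembly, read 51.0 in zer, against 94.5 to 178.5, and 106.8 in glc, 2.51-fold lower. Zer lay below wat, OMG, DOG and man in each of the 3 genes, and for ATL8 it was slightly above glc.

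Enzymes of glycosylation and oxidation came next. UGT73C1, a UDP-glycosyltransferase, read 25.0 in zer, below the floor, against 68.5 to 95.6, and 59.1 in glc, so that it was at least 2.67-fold lower. UGT87A2, of the same superfamily, read 216.3 in zer, against 397.2 to 512.4, and 330.5 in glc. Both enzymes attach sugars to small molecules. Prx37, a secreted class III peroxidase, read 39.8 in zer, against 75.5 to 122.4, and 126.1 in glc. ARL, an organ-size gene called ARGOS-LIKE, read 211.5 in zer, against 375.9 to 462.6, and 486.7 in glc. ARL sat at the edge of the call, at 2.04-fold with all arrays, 2.00-fold (just under the call) without DOG and 1.78-fold against wat alone. With all arrays Prx37 was 2.26-fold and UGT87A2 2.09-fold lower; against wat alone the log2 difference was -0.92 for Prx37 and -0.99 for UGT87A2, both short of 2-fold.

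Genes known here only by locus gave some of the largest differences. AT4G39675 on chromosome 4 read 66.6 in zer, against 432.3 in wat, 396.3 in OMG, 339.3 in DOG and 446.9 in man, and 256.2 in glc. It was 6.03-fold lower, and the nearest of the 4 arrays was 5.09-fold above zer. AT1G19530 read 228.4 in zer, against 728.0 in wat, 724.7 in OMG, 659.3 in DOG and 935.0 in man, and 73.3 in glc, 3.31-fold lower. The SD over the 4 arrays was 0.18 for AT4G39675 and 0.22 for AT1G19530, above the median of 0.13 over all probe sets. The other 8 loci named by rule were between 2.81-fold and 3.18-fold lower: AT3G10120, AT5G24210, AT5G48430, AT1G73120, AT5G66650, AT3G23550, AT4G16260 and AT4G37220. Against wat alone AT4G16260 was 1.97-fold and AT5G24210 2.04-fold lower. Against glc these loci differed from each other: AT5G66650 read 65.3 in zer and 35.1 in glc, while AT3G10120 read 53.0 in zer and 136.4 in glc.

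**Figure D3:**
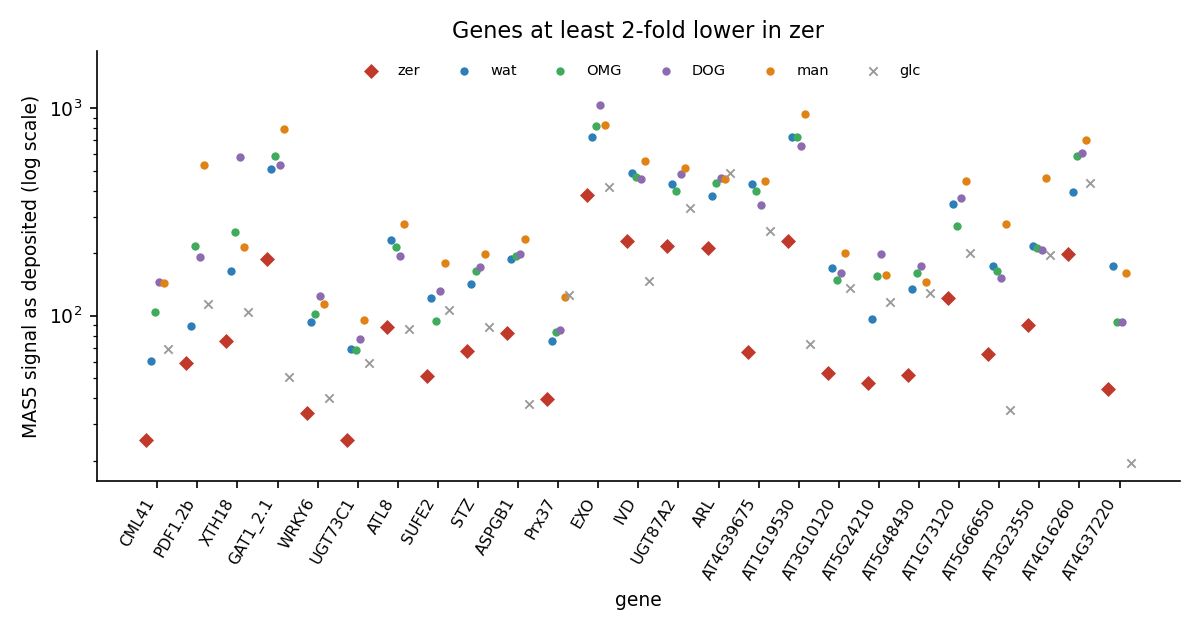
Deposited signal on a log axis for the 25 genes named as at least 2-fold lower in zer, with zer as red diamonds, wat, OMG, DOG and man as circles, and glc as grey crosses. Each red diamond lies below all 4 circles of its gene, and the glc cross is below zer for some genes, such as GAT1_2.1, and above it for others, such as ARL.

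Cold-regulated genes of chloroplast protection were higher in zer. COR15A read 84.0 in zer, against 9.5 in wat, 15.1 in DOG and 9.5 in man, and 10.1 in glc. These signals and that of OMG were all below the floor, so zer was at least 3.08-fold higher. COR15B, its neighbour on chromosome 2, read 118.0 in zer, against 37.4 in wat, 39.9 in OMG, 36.6 in DOG and 51.7 in man, and 29.6 in glc, 2.88-fold higher. Both genes had their highest signal of the 6 arrays in zer.

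The rest of the abscisic acid and cold list was not higher as a group. Of 5 members compared with the COR15 genes included, 2 were at least 2-fold higher and 0 lower, at a median of 0.36. The 2 are COR15A and COR15B, and over all probe sets 0.789% were higher and 0.909% lower. COR15A entered the comparison through zer alone, so zer had to lie above the other arrays there. Where a probe set had to reach the array median on all 5 arrays, the COR15 genes left the list and its median was -0.08. LTI30, a dehydrin, read 325.3 in zer, against 231.0 to 288.9. The dehydrin COR47 read 891.7 in zer, against 893.2 to 997.0, and the drought-induced linker histone HIS1-3 read 73.3 in zer, against 65.6 to 126.5.

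In the flavonoid list, 2 genes were at least 2-fold higher. DFR, dihydroflavonol reductase on the path to anthocyanins, read 106.8 in zer, against 40.6 in wat, 48.1 in OMG, 54.6 in DOG and 36.5 in man, and 37.5 in glc. Its log2 difference was 1.27. UGT78D1, which adds rhamnose to flavonols, read 110.0 in zer, against 62.2 in wat, 50.6 in OMG, 51.1 in DOG and 47.2 in man, and 87.9 in glc. Its log2 difference was 1.07, and UGT78D1 was 1.77-fold higher against wat alone and 1.99-fold higher with equal medians. These are the 2 members past 2-fold of 5 compared in the flavonoid list, with 0 lower. Over all probe sets 0.789% were higher and 0.909% lower. Of the 5, 4 had zer above all 4 arrays (32.7% over all probe sets), and the median was 0.40. UGT78D2, the flavonoid glucosyltransferase, read 260.8 in zer, against 180.6 to 205.7, and HCT of phenylpropanoid synthesis read 591.3 in zer, against 405.9 to 489.4.

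GSTU20, a tau-class glutathione transferase with a part in glucosinolate synthesis, was the brightest of the 11 symbol-named genes higher in zer. It read 905.2 in zer, against 323.9 in wat, 395.0 in OMG, 312.5 in DOG and 198.9 in man, and 565.3 in glc, 3.03-fold higher. BCAT4, which starts the methionine chain elongation of glucosinolates, read 394.1 in zer, against 162.4 in wat, 212.5 in OMG, 221.8 in DOG and 144.6 in man, and 198.3 in glc. BCAT4 was 2.16-fold higher with all arrays and 2.00-fold higher without man, just under the call. UGT74B1, the glucosyltransferase of glucosinolate synthesis, read 274.5 in zer, against 171.7 to 211.5, a 1.39-fold difference that misses the call. No list of glucosinolate genes was compared: GSTU20 and BCAT4 were named for the size of their difference, and UGT74B1 was picked with its value in view.

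Other glutathione transferases did not reach 2-fold. Of 14 in the family with a probe set, 8 were compared; 1 was at least 2-fold higher and 0 lower, where 0.789% and 0.909% of all probe sets were. Zer was above all 4 arrays in 6 of 8 and below in 2, against 32.7% and 27.1% over all probe sets, and the median was 0.54. GSTU25 read 107.9 in zer, against 53.1 to 83.3, and GSTU22 read 162.4 in zer, against 86.4 to 132.1. GSTU16 went the other way, with 149.1 in zer, against 166.7 to 227.0. The UDP-glycosyltransferases had no common direction. Of 25 compared, 1 was at least 2-fold higher and 2 lower, where 0.789% and 0.909% of all probe sets were. In 12 zer lay above all 4 arrays and in 6 below (32.7% and 27.1% over all probe sets), and the median was 0.09. Among the 12, UGT85A5 and UGT72B3 entered through zer alone, so their place above the 4 was fixed.

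Cell wall loosening genes were found on both sides. Of 23 with a probe set, 15 were compared; 3 were at least 2-fold higher and 1 lower, where 0.789% and 0.909% of all probe sets were. Zer was above all 4 arrays in 7 of 15 and below in 3, where the shares over all probe sets were 32.7% and 27.1%, and the median was 0.17. Among the 7, EXPB1 entered through zer alone, so its place above the 4 was fixed. EXPA8, an alpha-expansin that loosens walls in growth, read 201.8 in zer, against 69.5 in wat, 68.5 in OMG, 85.3 in DOG and 65.5 in man, and 82.0 in glc, 2.81-fold higher. EXPB3, a beta-expansin, read 124.8 in zer, against 71.1 in wat, 74.8 in OMG, 65.3 in DOG and 39.6 in man, and 78.9 in glc. Its 2.05-fold difference was 1.78-fold without man, 1.76-fold against wat alone and 1.95-fold with equal medians. EXPB3 also fell short of 2-fold with the median of the 4 arrays in place of their mean.

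XTH19 and XTH18 are adjacent genes of one enzyme family and were on opposite sides. XTH19 read 75.6 in zer, against 25.3 in wat, 34.6 in OMG, 51.4 in DOG and 38.3 in man, and 82.1 in glc, at least 2.02-fold higher, and 1.85-fold without wat or 1.97-fold without OMG. With equal medians XTH19 was 1.92-fold higher, and after quantile normalization it also fell short of 2-fold. XTH18 was lower in zer, as given above. Whether each probe set reads its own gene alone was not checked. The cellulase GH9C2 read 258.4 in zer, against 126.9 in wat, 132.3 in OMG, 130.3 in DOG and 96.5 in man, and 192.9 in glc, 2.14-fold higher and 1.99-fold without man. The jacalin-related lectin JAL22 read 573.9 in zer, against 233.0 to 305.8, and 225.6 in glc, 2.07-fold higher, and 1.95-fold without man. JAL22 was 1.93-fold higher against wat alone and 1.97-fold with equal medians. It also fell short of 2-fold with the median of the 4 arrays in place of their mean.

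Among loci without a symbol, AT4G30650 was 4.70-fold higher. It read 291.3 in zer, against 66.4 in wat, 74.2 in OMG, 78.9 in DOG and 37.8 in man, and 91.5 in glc. AT4G30660, the next gene along chromosome 4, read 246.2 in zer, against 93.3 to 108.6, and 141.1 in glc, 2.47-fold higher. AT3G22620 on chromosome 3 read 337.1 in zer, against 74.0 in wat, 67.0 in OMG, 103.9 in DOG and 88.4 in man, and 118.8 in glc, a log2 difference of 2.04. AT1G74460 had a very even level on the 4 arrays, with 208.5 in zer, against 65.1 to 68.2, and 84.4 in glc, 3.14-fold higher. The other 6 loci named by rule had log2 differences between 1.33 and 1.63, with AT4G11190 and AT3G57010 as lower bounds: AT5G05250, AT4G11190, AT1G20070, AT1G14960, AT3G57010 and AT4G28940.

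**Figure D4:**
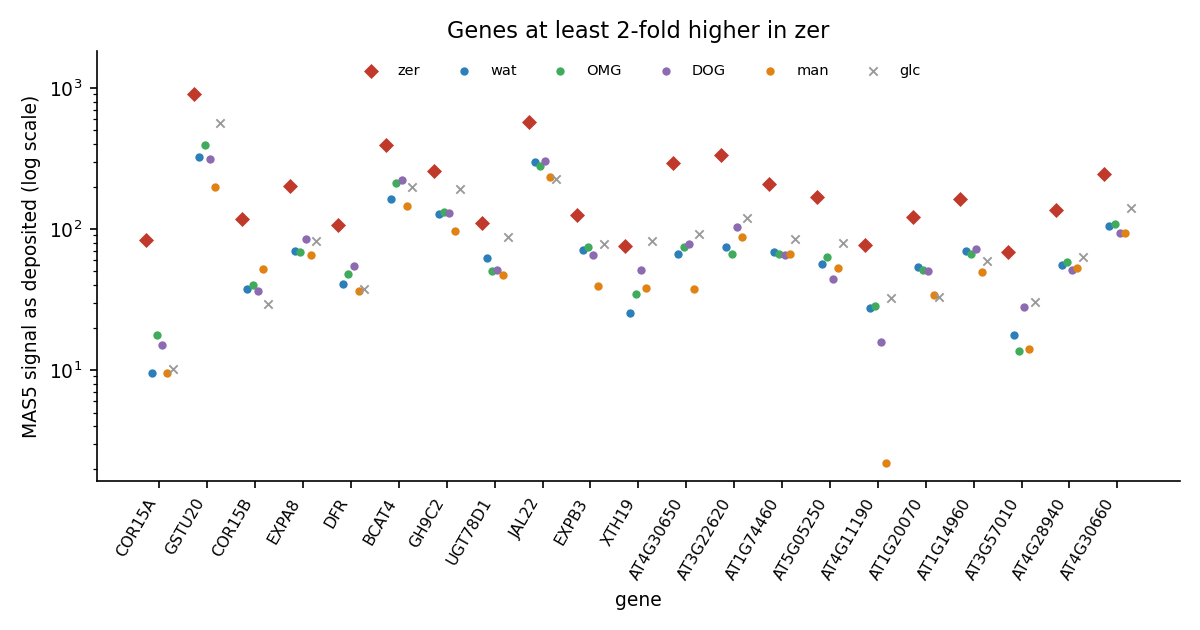
Deposited signal on a log axis for the 21 genes named as at least 2-fold higher in zer, with zer as red diamonds, wat, OMG, DOG and man as circles, and glc as grey crosses. Each red diamond lies above all 4 circles of its gene, and for XTH19 the glc cross reaches above zer.

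Some called genes were neighbours on a chromosome. Of 1770 pairs of neighbouring genes with both compared, 4 had both members past 2-fold, 3 in the same direction. Taken singly, 104 of all protein-coding nuclear loci compared were past 2-fold, whether or not a neighbour was compared. Over all probe sets 0.789% were higher and 0.909% lower. The number of such pairs to be had without any link between neighbours was not computed. The same-direction pairs, all higher in zer, were COR15B with COR15A, AT4G30650 with AT4G30660, and AT5G38020 with AT5G38030. COR15A and AT5G38030 entered the comparison through zer alone, so zer had to be the higher side for them. Whether the probe sets of each pair read their own gene alone was not checked. The opposite pair was XTH18 with XTH19.

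Nuclear photosynthesis genes had almost the same signal in zer as in the 4 arrays. Of 10 compared, 0 reached 2-fold, where 0.789% of all probe sets were higher and 0.909% lower. In 3 zer was above all 4 arrays and in 0 below (32.7% and 27.1% over all probe sets), and the median was 0.03. LHCB4.2, a light-harvesting antenna protein, had the largest difference, with 2256.2 in zer, against 1688.7 to 1982.1. Pigment synthesis differed more. PORB, protochlorophyllide oxidoreductase of chlorophyll synthesis, read 1033.0 in zer, against 737.6 in wat, 761.7 in OMG, 697.2 in DOG and 529.9 in man, and 756.9 in glc, 1.53-fold higher. CHLI2, a magnesium chelatase subunit, read 271.6 in zer, against 175.9 in wat, 194.2 in OMG, 188.2 in DOG and 152.9 in man, and 253.0 in glc, 1.53-fold higher. Of the 5 pigment genes 0 reached 2-fold, against the same 0.789% and 0.909%. In 4 zer was above all 4 arrays and in 1 below (32.7% and 27.1% over all probe sets), at a median of 0.25.

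Plastid-encoded genes were measured in full, with 69 of 69 compared. In zer, 0 of 69 reached 2-fold in either direction, where 0.789% of all probe sets were higher and 0.909% lower. At 1.5-fold, 5 were higher and 0 lower, where 4.69% and 4.12% of all probe sets were. Zer was above all 4 arrays in 22 of 69, a share near the 32.7% over all probe sets, and below all 4 in 5, where the share over all probe sets was 27.1%. The median was 0.09. The largest differences were shared with man. The gene petD, of the cytochrome b6f complex, read 163.0 in zer, against 60.2 in wat, 74.8 in OMG, 64.5 in DOG and 190.2 in man, and 65.0 in glc. The ribosomal protein gene rps14 read 104.4 in zer, against 46.3 in wat, 38.0 in OMG, 41.3 in DOG and 151.2 in man, and 40.7 in glc. For both, man was above zer, so zer lay inside the range of the 4 arrays.

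Tubulin genes stayed under 2-fold. Of 10 tubulin, tubulin-folding and kinesin genes compared, 0 reached 2-fold, where 0.789% of all probe sets were higher and 0.909% lower. In 7 zer was above all 4 arrays and in 0 below (32.7% and 27.1% over all probe sets), and the median was 0.27. TUB1, a beta-tubulin, read 112.6 in zer, against 69.1 in wat, 82.2 in OMG, 85.7 in DOG and 54.6 in man, and 124.1 in glc, 1.57-fold higher. TUA6, an alpha-tubulin, read 757.4 in zer, against 517.2 to 620.4, and 814.8 in glc.

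**Figure D5:**
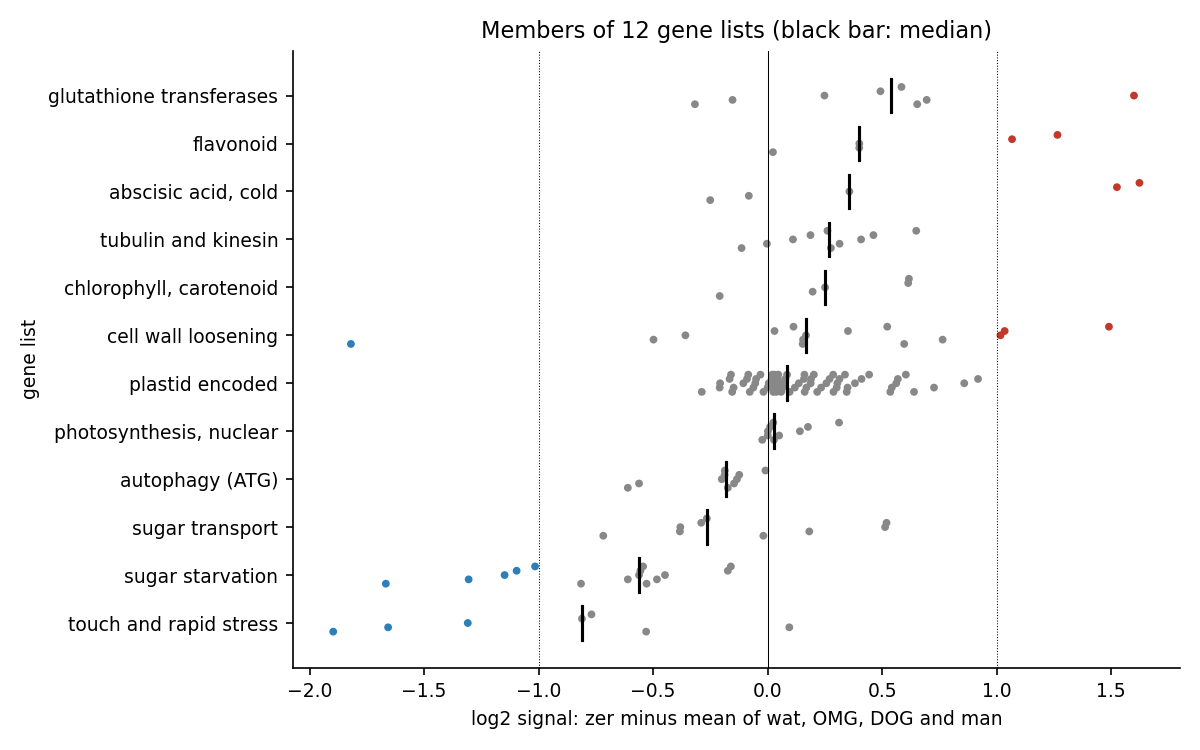
Each point is a gene of 1 of 12 lists, placed by its log2 signal in zer minus the mean of wat, OMG, DOG and man, and a black bar marks each list's median. Blue points are at least 2-fold lower and red points at least 2-fold higher; the touch and rapid stress list has its median at -0.81, the sugar starvation list at -0.56 and the glutathione transferases at 0.54.

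Markers of root and of green shoot were both present in zer and in the 4 arrays. The root marker PYK10, a beta-glucosidase of ER bodies, read 3311.3 in zer, against 2637.8 to 3009.9, and the green shoot marker RCA, Rubisco activase, read 3309.7 in zer, against 2776.9 to 3292.3. The root-hair expansins EXPA7 and EXPA18 were near the array median, with 40.1 and 41.3 in zer, against 28.4 to 43.4 for EXPA7 and 34.5 to 41.6 for EXPA18. The 3 root and 2 green shoot markers with a probe set of their own were compared, and 0 of them reached 2-fold. Over all probe sets 0.789% were higher and 0.909% lower. The seed and pollen or flower markers have no probe set named for them alone, so they were not analysed here.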

How the data were processed

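The deposited values are MAS5 probe set signals on a linear intensity scale, per the submitters' processing notes. Its version is not given in the sources used here. The mean after trimming 2% at each end is 100 on every array, so the deposited intensity values had been scaled to a common mean, which hides any change shared by most transcripts. Of 22810 rows, 64 controls were left out. Array medians ran from 40.2 to 43.2. For arrays, their number limits the precision.

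Any signal under its array's 40th percentile (26.1 to 28.8) was raised to that value, and folds resting on that floor are lower bounds. The log2 signal of zer minus the mean log2 signal of wat, OMG, DOG and man was taken with pandas 2.3.3. The same step was run on simulated arrays with independent noise and changes planted only in bright probe sets. That run checks the calculation and not the error rate of the calls made here. Genes were named from platform annotation and a RefSeq table of assembly TAIR10.1: 13513 probe sets had 1 gene, 503 several and 8730 none, and 1580 had a symbol. The brightest probe set stood for a gene in a list. Of 1075 list entries, 157 had one. The text names, per direction, the 15 largest 2-fold differences with a symbol and the 10 largest with a locus only, outside the range of the 4 arrays, plus up to 4 members of each list with the largest differences. Other list members the text gives, such as MCCB, ETFQO and BZIP53, fall outside this rule and were picked with their values in view, as were neighbouring genes. Members and lists were chosen with earlier results of these data known. Promoters and sequences were not analysed here.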

Additional observations from a re-analysis of the deposited data

How the results depend on the processing

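No paired analysis was possible because each group holds 1 array. The counts of 99 higher and 114 lower probe sets moved beyond 1.5 times under 1 alternative: where a probe set had to reach the array median on all 5 arrays, 50 were higher (89 lower), since probe sets dim on the 4 arrays no longer entered. Leaving out wat, OMG, DOG or man in turn gave 86 to 108 higher and 99 to 130 lower. Without a floor there were 129 and 156, after quantile normalization 89 and 120, and with equal medians 70 and 141. Against wat alone there were 103 and 99, of which 65 and 83 were also called against the mean. Of the 46 genes chosen by size of difference, 34 stayed past 2-fold under every alternative that could be run for them and 12 did not; 0 changed direction. Of the higher calls, 40 of 99 lie in the dimmest of 4 equal bins of mean signal, where the floor leaves almost no room for a lower call.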

Other observations

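Several further groups did not reach 2-fold, where 0.789% of all probe sets were higher and 0.909% lower. Of the bHLH factors, 5 were compared: bHLH34 read 63.2 in zer, against 99.3 to 110.9, bHLH104 read 160.9 in zer, against 200.4 to 240.4, and bHLH115 read 313.6 in zer, against 193.8 to 263.3. Among 7 bZIP factors, bZIP44 read 61.4 in zer, against 71.1 to 132.8, and bZIP52 read 56.7 in zer, against 36.8 to 42.7. The 4 auxin-response genes compared lay between -0.24 and 0.39 on the log2 scale, and the 4 cell cycle genes between 0.05 and 0.45. Of 7 mitochondrial genes, 5 had zer above all 4 arrays and 2 below (32.7% and 27.1% over all probe sets), at a median of 0.22; nad4, a subunit of respiratory complex I, read 231.3 in zer, against 170.0 to 223.6.

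Among beta-glucosidases, BGLU46 read 51.0 in zer, against 68.7 in wat, 87.8 in OMG, 86.3 in DOG and 112.4 in man, and BGLU44 read 662.6 in zer, against 427.7 to 559.3. Of 99 higher and 114 lower probe sets, 49 and 56 have no gene name here, among them the largest difference in each direction, which was at least 5.22-fold among the higher and 8.01-fold among the lower.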
